A study of Homo sapiens with 8 samples.

Results

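The transcripts of 9 enzymes of serine synthesis and folate metabolism were compared between HuH7 cells given Rk2 or DMSO after oxygen and glucose deprivation. The 9 genes were taken by symbol from the 15767 genes of the count table, and all 9 were among the 12910 genes with enough counts to be tested. They were PHGDH, PSAT1 and PSPH for serine synthesis, SHMT2, MTHFD2, MTHFD1L and ALDH1L2 for folate reactions in mitochondria, and SHMT1 and MTHFD1 for the same kind of reactions in the cytosol. HuH7 is an established line derived from a human hepatoma, used here without genetic change, so it is a proliferating tumour line and not a hepatocyte. All cells, controls included, spent 6 h in glucose-free DMEM at 1% oxygen and were then returned to normoxia (OGD/R). For 6 h of reoxygenation they received DMSO alone (I/R+DMSO, 4 libraries) or the ginsenoside Rk2 at 20 µM dissolved in DMSO (I/R+Rk2, 4 libraries). No cells kept free of OGD/R were analysed here, with or without Rk2, so the values compare Rk2 with DMSO and do not show what OGD/R itself did. Nothing in the labels says that the libraries came from separate cultures, so p-values measure the spread between these libraries, which may be technical.

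Cells make serine from an intermediate of glycolysis. PHGDH oxidizes 3-phosphoglycerate, PSAT1 adds an amino group taken from glutamate, and PSPH removes the phosphate. Serine then gives up a carbon unit to tetrahydrofolate through the serine hydroxymethyltransferases, SHMT2 in mitochondria and SHMT1 in the cytosol. In mitochondria MTHFD2 oxidizes the carbon unit, MTHFD1L releases it as formate for export, and ALDH1L2 oxidizes it to carbon dioxide with the formation of NADPH. In the cytosol the single protein MTHFD1 carries formate back onto folate, for purines, thymidylate and methionine. Hepatocytes and proliferating cells both use the pathway, and several of its genes are known targets of the stress-responsive transcription factor ATF4.

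Library totals ranged from 16374082 to 30310479 counts, and within a group the counts of any 2 libraries had a rank correlation across genes of at least 0.983. I/R+DMSO replicate 1 stood apart on the second principal component, at 78.7 against -48.6 to -41.4 for the other I/R+DMSO libraries. On the first component, which separated the groups, it was also the most extreme, at -114 against -54.8 to -30.0. The I/R+Rk2 libraries lay at 47.1 to 85.7 on that component. Levels are given as CPM, the counts scaled to library size with edgeR's TMM method, and every fold change sets I/R+Rk2 over I/R+DMSO. A gene passed the test when the adjusted p of edgeR's quasi-likelihood test, with Benjamini-Hochberg adjustment over the 12910 tested genes, was below 0.05. By this test 1417 genes (11.0% of those tested) were higher in I/R+Rk2 and 935 (7.24%) were lower, and the median log2 fold change of all tested genes was -0.002. The split between higher and lower depended on the scaling, with 1246 higher and 1306 lower under upper-quartile normalization, 1642 and 683 with library size only, and 1028 and 1244 after a gene length correction. Across genes, the longer ones tended towards more positive changes with Rk2 (correlation of 0.388 between length and log2 fold change). All 10 hepatocyte and hepatoma markers were tested, with a summed level of 13905 to 15143 CPM in the I/R+DMSO libraries and of 14135 to 14406 CPM with Rk2, and with ALB at 2288 CPM in I/R+DMSO and 2306 in I/R+Rk2 and AFP at 5937 and 5940. Of the 9 markers of other cell types 4 were tested, and their summed level was 141 to 145 CPM in I/R+DMSO against 113 to 126 CPM with Rk2. PTPRC and VWF were listed at 0 FPKM in every library. COL1A1, ACTA2 and KRT7 were below the count filter. The keratins KRT8, KRT18 and KRT19 moved with the group, by log2 fold changes of -0.47, -0.52 and -0.55, as did APOB at 0.61 (adjusted p = 0.000773, 0.00642, 0.00204 and 0.0124, edgeR). Their part in the results was not tested. In bulk RNA, fewer cells with a transcript and less of it per cell cannot be told apart.

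Of the 9 enzymes, 4 rose in I/R+Rk2 and none fell, and 3 of the 4 rose by more than 1.5-fold, where 2.46% of all tested genes did. The 4 were PHGDH and PSAT1, the first enzymes of serine synthesis, and MTHFD2 and ALDH1L2 of the mitochondrial folate pathway. The other 5, PSPH, SHMT2, MTHFD1L, SHMT1 and MTHFD1, did not pass the test. The groups did not overlap in 6 of the 9 genes, against 28.3% of all tested genes. The median log2 fold change was 0.53 over the 3 genes of serine synthesis, 0.45 over the 4 mitochondrial folate genes and -0.08 over the 2 cytosolic genes. Without I/R+DMSO replicate 1, the library that stood apart, 4 of the 9 were again higher and none was lower.

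**Figure D1:**
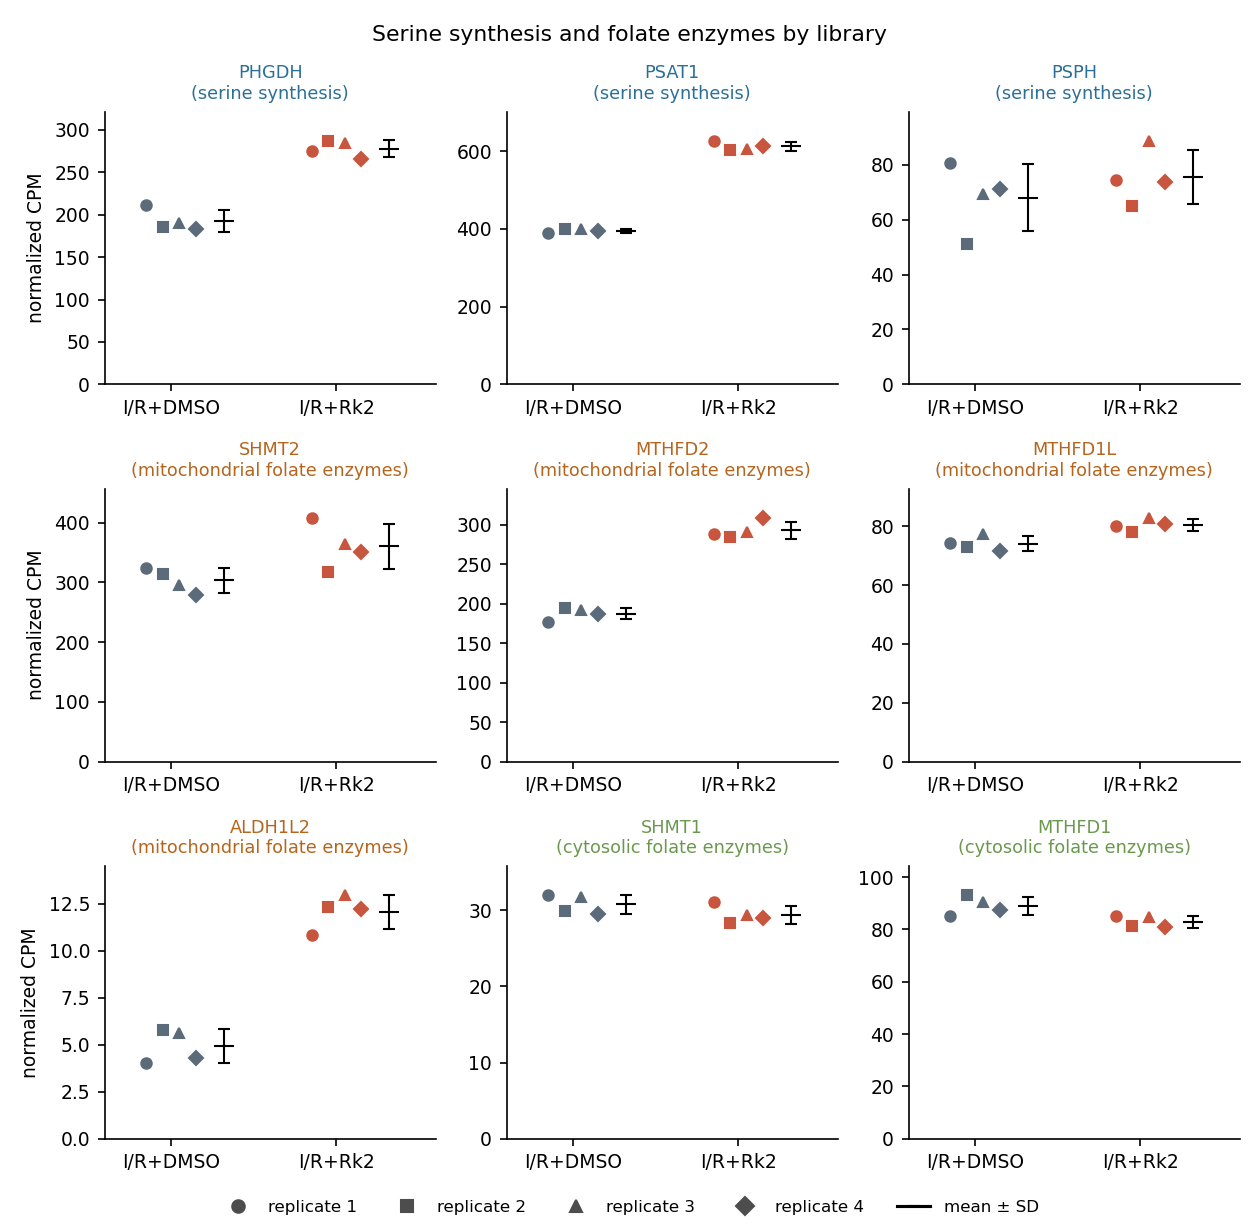
Normalized CPM (vertical axis, from 0) of the 9 enzymes in each of the 8 libraries, with grey points for I/R+DMSO, red points for I/R+Rk2, a marker shape for each replicate number and black bars for the mean and SD. PHGDH, PSAT1, MTHFD2 and ALDH1L2 show separated groups, while PSPH, SHMT2 and SHMT1 overlap between the groups.

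PHGDH, the enzyme that commits 3-phosphoglycerate to serine synthesis (chr1:119648411-119744226, plus strand, GRCh38, GENCODE v29), rose 1.44-fold. Its CPM was 212, 186, 190.4 and 183 in the I/R+DMSO libraries and 275, 287, 284 and 265 in the I/R+Rk2 libraries. Every I/R+Rk2 library lay above every I/R+DMSO library, and I/R+DMSO replicate 1 was the highest of its group. The means were 193 ± 13.2 and 278 ± 9.94 CPM (SD, n = 4 each). This was a log2 fold change of 0.53 with a standard error of 0.0545, and edgeR gave an adjusted p of 0.000948. The rise stayed short of the 1.5-fold threshold on counts.

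PSAT1, the aminotransferase of the next step (chr9:78297143-78330093, plus strand), rose 1.55-fold with the smallest p of the 9 enzymes. The I/R+DMSO libraries held 389, 399, 399 and 393 CPM, and the I/R+Rk2 libraries 626, 604, 604 and 613 CPM. The libraries of a group lay close together and far from those of the other group. The means were 395 ± 4.94 and 612 ± 10.7 CPM (SD, n = 4 each). The log2 fold change was 0.63 with a standard error of 0.0307, and edgeR gave an adjusted p of 3.376e-05. By p-value PSAT1 ranked 8 among all 12910 tested genes.

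PSPH, the phosphatase that completes serine synthesis (chr7:56011051-56051604, minus strand), did not pass the test. Its CPM was 80.7, 51.2, 69.3 and 71.0 in I/R+DMSO and 74.6, 64.9, 88.8 and 73.7 in I/R+Rk2. The groups overlapped, and the 2 libraries numbered 2 were the lowest of each. The log2 fold change was 0.15, with a 95% interval from -0.19 to 0.49 that holds both no change and a change near that of PHGDH (adjusted p = 0.509, edgeR). Single libraries moved this value, to 0.036 without I/R+DMSO replicate 2, 0.063 without I/R+Rk2 replicate 3 and 0.24 without I/R+DMSO replicate 1. GENCODE v29 lists pseudogenes of PSPH, PSAT1, SHMT1, MTHFD1 and MTHFD2. Of the 16 copies looked for 14 are in that release, and none of the 16 had a row in the count or FPKM table. Their sequences were not compared with those of the genes. Whether reads from such copies were counted with the genes was not tested.

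Sequence before the starts of PSAT1, PHGDH and MTHFD2 is shown here, since the fold changes of these 3 genes were close to each other, and a stretch of MTHFD1L, which did not pass the test, is shown for its match to a motif bound by ATF4. RefSeq promoter windows (GRCh38.p14, 250 bases before to 50 after a start) were found for 6 of the 9 genes, and PSPH, SHMT2 and ALDH1L2 had none. These RefSeq starts differ from the ends of the GENCODE ranges given for the genes, and the stretches of PHGDH and MTHFD1L lie inside those ranges. The sequences below run 5′ to 3′ on the plus strand, the strand of all 4 genes. PSAT1 is the whole stretch of 250 bases before the start at chr9:78296875-78297124, PHGDH is chr1:119711851-119711880, MTHFD2 is chr2:74198529-74198558 and MTHFD1L is chr6:150866346-150866375. Capitals mark the letters CCAAT in the first 3 and TGATGCAA, a match to the composite site TGATGNAA bound by ATF4 with C/EBP proteins, in MTHFD1L.
PSAT1: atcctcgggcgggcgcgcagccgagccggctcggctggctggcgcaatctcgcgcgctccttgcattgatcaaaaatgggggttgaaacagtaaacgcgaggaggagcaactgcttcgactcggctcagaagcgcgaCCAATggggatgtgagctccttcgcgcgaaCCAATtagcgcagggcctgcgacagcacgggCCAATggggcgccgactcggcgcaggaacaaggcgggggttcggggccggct
PHGDH: gagtatttccgtCCAATcaaaaggagactg
MTHFD2: atgcggcagggaCCAATgggtggcggaggg
MTHFD1L: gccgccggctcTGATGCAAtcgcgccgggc

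The letters CCAAT stood at -113, -83 and -52 from the start of PSAT1, at -71 in PHGDH and at -184 and -74 in MTHFD2. On either strand they were in a window of all 6 genes, including SHMT1 and MTHFD1, and in 34.6% of all 35116 windows in the table. This motif was chosen after the sequences had been seen. TGATGNAA was in 3 of the 4 windows of MTHFD1L and in no window of the other 5 genes, against 3.62% of all windows. The 3 windows overlap and hold the same site. It lies at -129 from the start used for the stretch above, and at +25 and -90 from the starts of the other windows that hold it. TGACGTCA, the cyclic AMP response element, was in none of the 6 genes (1.85% of all windows). TGACNNNGC, the core of the antioxidant response element, was in MTHFD2 alone at +7 (13.35% of all windows), and the E-box CACGTG was in MTHFD1L and MTHFD1 (7.26%). Both strands were searched, and no motif overlapped another in these windows. A match is a description of the letters and does not show binding.

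SHMT2, which moves a carbon unit from serine to folate in mitochondria (chr12:57229327-57234935, plus strand), did not pass the test, with an interval of its change that lay above 0. Its CPM was 325, 315, 295 and 278 in I/R+DMSO and 408, 318, 364 and 351 in I/R+Rk2. I/R+Rk2 replicate 2 lay below I/R+DMSO replicate 1, and the other 3 I/R+Rk2 libraries lay above all of I/R+DMSO. The log2 fold change was 0.25 (95% interval 0.06 to 0.43, adjusted p = 0.0669, edgeR). Without I/R+Rk2 replicate 2 it was 0.30 and passed (adjusted p = 0.0409, edgeR), and it also passed with DESeq2 (adjusted p = 0.0301), with library size only (adjusted p = 0.0436, edgeR), after the gene length correction (0.32, adjusted p = 0.0218, edgeR) and with limma on FPKM (adjusted p = 0.0171 to 0.0208).

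MTHFD2, the mitochondrial methylenetetrahydrofolate dehydrogenase and cyclohydrolase (chr2:74198562-74217565, plus strand), rose 1.56-fold. The I/R+DMSO libraries held 178, 194, 192 and 187 CPM and the I/R+Rk2 libraries 288, 284, 291 and 309. The groups were well separated, with the lowest I/R+Rk2 library above the highest I/R+DMSO library. The means were 188 ± 7.43 and 293 ± 10.8 CPM (SD, n = 4 each). On the log2 scale the change was 0.64 with a standard error of 0.0433, and edgeR gave an adjusted p of 0.000137.

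MTHFD1L, the mitochondrial formate-releasing synthetase (chr6:150865549-151101887, plus strand), moved little. Its CPM was 74.2, 73.1, 77.4 and 71.7 in I/R+DMSO and 80.1, 77.9, 82.8 and 80.7 in I/R+Rk2. The groups did not overlap, though the nearest libraries were less than 1 CPM apart. The log2 fold change of 0.12 (95% interval 0.02 to 0.21) did not pass the test (adjusted p = 0.0843, edgeR). With library size only it was 0.15 and passed (adjusted p = 0.0396, edgeR).

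ALDH1L2, the mitochondrial formyltetrahydrofolate dehydrogenase (chr12:105019784-105084577, minus strand), rose most of the 9 enzymes, 2.44-fold. It had 76, 123, 102 and 91 counts in the I/R+DMSO libraries and 330, 232, 214 and 241 in the I/R+Rk2 libraries, which is 4.04, 5.79, 5.62 and 4.27 against 10.8, 12.3, 13.0 and 12.2 CPM. The lowest I/R+Rk2 library was well above the highest I/R+DMSO library. The means were 4.93 ± 0.905 and 12.1 ± 0.898 CPM (SD, n = 4 each). On the log2 scale it rose by 1.29 with a standard error of 0.136, and edgeR gave an adjusted p of 0.00104. Its log2 fold change was at percentile 99.5 of all tested genes. The exons of ALDH1L2 overlap those of C12orf45 on the opposite strand, and C12orf45 moved the other way, from 26.0 to 15.4 CPM (log2 fold change -0.76, adjusted p = 0.0368, edgeR).

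SHMT1, the cytosolic counterpart of SHMT2 (chr17:18327860-18363563, minus strand), did not pass the test. Its CPM was 32.0, 29.9, 31.7 and 29.5 in I/R+DMSO and 31.1, 28.3, 29.4 and 28.99 in I/R+Rk2, with overlapping groups. The log2 fold change was -0.06 (95% interval -0.19 to 0.06, adjusted p = 0.443, edgeR), an interval that does not reach the changes of PHGDH, PSAT1 or MTHFD2. The exons of MIR6778 overlap those of SHMT1 on the same strand. SMCR8, whose exons overlap those of SHMT1 on the opposite strand, rose from 69.6 to 92.1 CPM (log2 fold change 0.40, adjusted p = 0.0223, edgeR).

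MTHFD1, the cytosolic enzyme that carries formate onto folate and interconverts the folates that follow (chr14:64388031-64463457, plus strand), had a slightly lower mean in I/R+Rk2 and did not pass the test. Its CPM was 85.05, 93.1, 90.3 and 87.2 in I/R+DMSO and 85.03, 81.1, 84.8 and 80.8 in I/R+Rk2. The groups did not overlap, but the libraries numbered 1 were almost equal. Its log2 fold change was -0.10 (95% interval -0.20 to 0.00016, adjusted p = 0.145, edgeR). After the gene length correction it was -0.15 and passed as lower (adjusted p = 0.0393, edgeR).

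**Figure D2:**
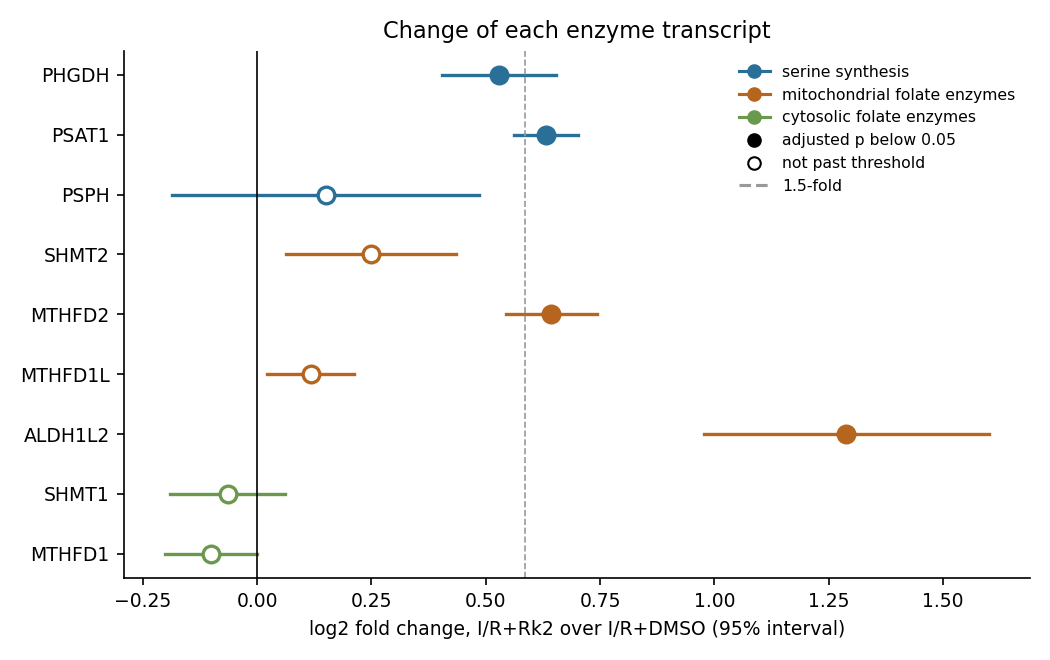
Log2 fold change of each enzyme in I/R+Rk2 over I/R+DMSO (horizontal axis) with its 95% interval from edgeR's quasi-likelihood fit, coloured by group of enzymes, with filled points for an adjusted p below 0.05 and a dashed line at 1.5-fold. PHGDH, PSAT1, MTHFD2 and ALDH1L2 are filled, from 0.53 to 1.29, and the cytosolic enzymes SHMT1 and MTHFD1 lie at -0.06 and -0.10.

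SHMT2 overlaps AC137834.2 and NDUFA4L2 on the opposite strand, MTHFD2 overlaps AC006030.1 and SLC4A5, and MTHFD1 overlaps AL122035.1, AL122035.2 and ZBTB25. None of these partners that were tested passed, and their means were at most 6.88 CPM. The strand setting of the read counting is not given in the sources used here, so without strand the reads of a gene and of its antisense partner cannot be told apart. PHGDH, PSAT1, PSPH and MTHFD1L overlap no other exon in GENCODE v29.

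Mitochondrial enzymes were compared with their cytosolic counterparts by the log2 ratio of CPM within each library. The genes and this test were chosen with earlier results of these data known, so the p-values describe how far the groups separate. The ratio rose in I/R+Rk2 in all 3 pairs that could be formed, and the groups did not overlap in any. Of all single tested genes 28.3% did not overlap either, and the share over other pairs of genes was not computed. The pair ALDH1L2 and ALDH1L1 was not tested, since ALDH1L1, the cytosolic formyltetrahydrofolate dehydrogenase, had no row in the count table and was listed at 0 FPKM in all 8 libraries.

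MTHFD2 over MTHFD1 changed most. Its log2 ratio was 1.06, 1.06, 1.09 and 1.10 in I/R+DMSO and 1.76, 1.81, 1.78 and 1.93 in I/R+Rk2. The 2 groups were far apart, at 1.08 ± 0.0188 and 1.82 ± 0.0780 (SD, n = 4 each), a difference of 0.74. For SHMT2 over SHMT1 the log2 ratio was 3.34, 3.39, 3.22 and 3.24 in I/R+DMSO and 3.71, 3.49, 3.63 and 3.60 in I/R+Rk2, a difference of 0.31. The lowest I/R+Rk2 library, replicate 2, was still above the highest I/R+DMSO library. For MTHFD1L over MTHFD1 it was -0.20, -0.35, -0.22 and -0.28 in I/R+DMSO and -0.09, -0.06, -0.03 and -0.003 in I/R+Rk2, a difference of 0.22. In each pair the two-sided exact permutation p was 0.0286, the smallest that 4 libraries against 4 can give, and the Benjamini-Hochberg value over the 3 pairs was 0.0286. The ratios of MTHFD2 and MTHFD1L share MTHFD1 as their denominator, and MTHFD1 itself did not overlap between the groups. Neither MTHFD1L nor MTHFD1 passed the edgeR test alone. With FPKM in place of CPM, MTHFD1L over MTHFD1 differed by 0.19 and did not pass (two-sided exact permutation p = 0.114).

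**Figure D3:**
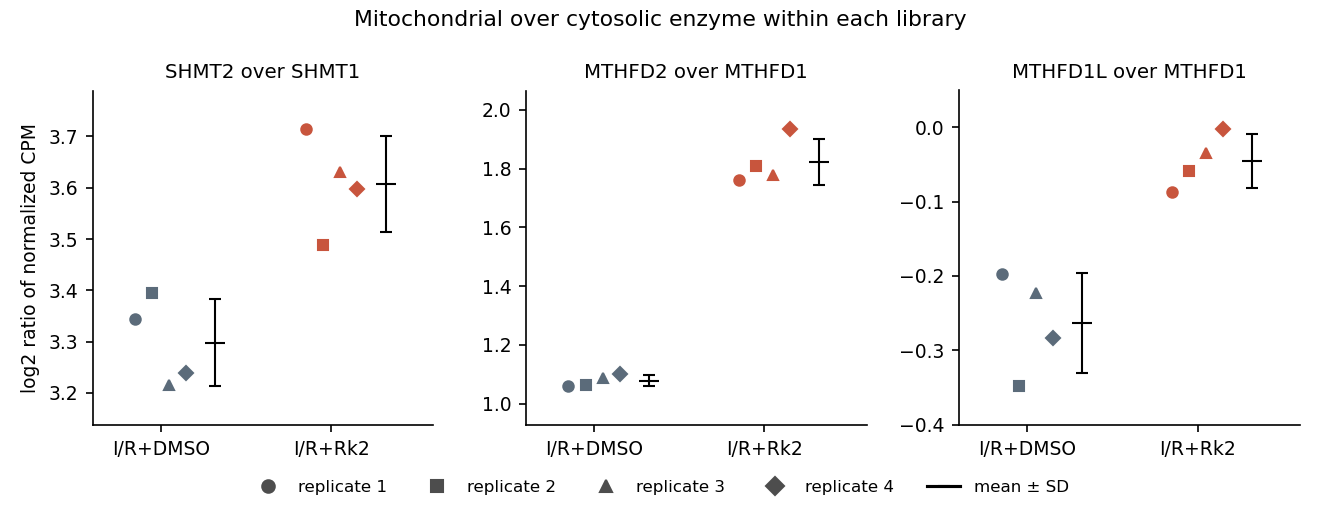
Log2 ratio of normalized CPM of a mitochondrial enzyme over its cytosolic counterpart (vertical axes, each with its own range that does not start at 0) in each library, with grey points for I/R+DMSO, red points for I/R+Rk2 and black bars for the mean and SD. All 3 ratios are higher in I/R+Rk2 with no overlap between the groups, by 0.31, 0.74 and 0.22.

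Levels of different genes were compared by FPKM, which is scaled to gene length. In I/R+DMSO the order was SHMT2 (167 ± 5.87 FPKM), PSAT1 (150.1 ± 3.28), PHGDH (63.7 ± 3.23), MTHFD2 (58.6 ± 2.85), PSPH (38.1 ± 6.01), MTHFD1L (29.4 ± 1.57), MTHFD1 (27.2 ± 1.91), SHMT1 (12.9 ± 0.420) and ALDH1L2 (0.670 ± 0.200, SD, n = 4 each). Of these neighbours MTHFD1L and MTHFD1 overlapped between libraries. In I/R+Rk2 PSAT1 at 238 ± 3.35 FPKM stood above SHMT2 at 204 ± 11.2 FPKM (SD, n = 4 each), so the order of the first pair was exchanged. PHGDH at 100.3 ± 3.61 and MTHFD2 at 93.2 ± 3.87 FPKM (SD, n = 4 each) then overlapped, and the order of the other enzymes was the same as in I/R+DMSO. ALDH1L2, although it rose most in relative terms, was still the lowest, at 1.90 ± 0.305 FPKM (SD, n = 4).

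As a check on the counts, the ratio of mean FPKM was 1.58 for PHGDH, 1.58 for PSAT1, 1.59 for MTHFD2 and 2.84 for ALDH1L2. It was 1.17 for PSPH, 1.22 for SHMT2 and 1.08 for MTHFD1L, and 0.961 for SHMT1 and 0.948 for MTHFD1. Each FPKM ratio lay on the same side of 1 as the fold change of the counts. SHMT2, which overlapped between the groups in CPM, did not overlap in FPKM, with 163 to 176 FPKM in the I/R+DMSO libraries against 192 to 217 FPKM with Rk2.

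The summed FPKM of the 9 enzymes was 548 ± 4.54 in I/R+DMSO and 752 ± 19.6 in I/R+Rk2 (SD, n = 4 each). Serine synthesis held 44.9% to 47.2% of that sum in the I/R+DMSO libraries and 50.5% to 51.7% in the I/R+Rk2 libraries. The mitochondrial folate enzymes held 45.5% to 47.5% and 43.5% to 44.2%, and the cytosolic enzymes 6.98% to 7.59% and 4.82% to 5.38%. No range overlapped between the groups, so the mitochondrial share was lower in I/R+Rk2 although each mitochondrial enzyme had a higher mean FPKM there. Of the FPKM of SHMT1 and SHMT2 together, SHMT2 made up 92.8% ± 0.242 in I/R+DMSO and 94.3% ± 0.173 in I/R+Rk2 (SD, n = 4 each). These shares are of transcripts per length and say nothing of protein.

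**Figure D4:**
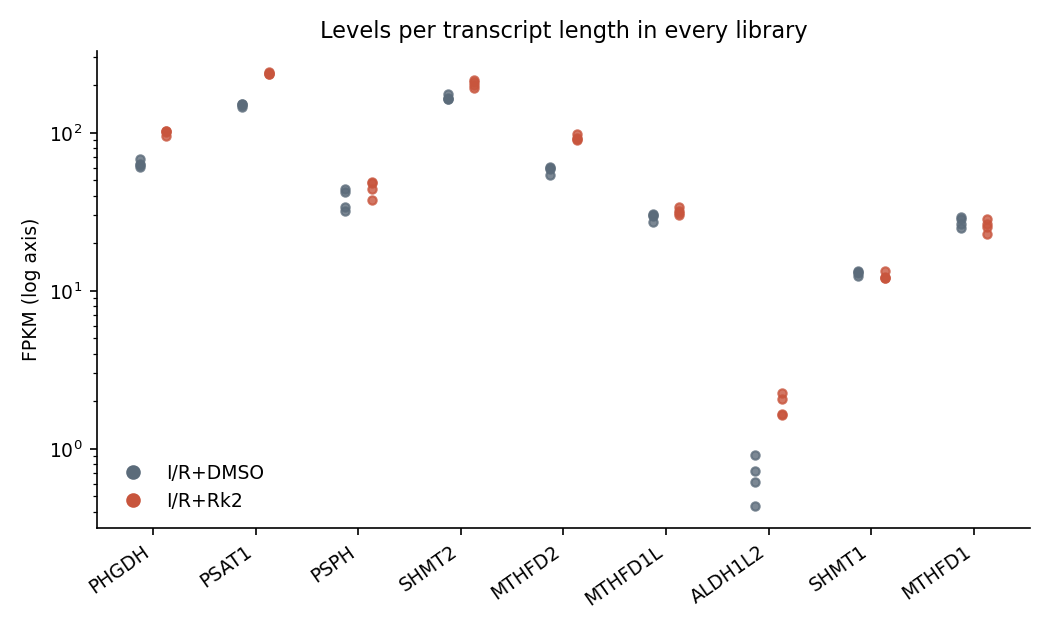
FPKM of the 9 enzymes (vertical log axis) in every library, with 1 point per library, grey for I/R+DMSO and red for I/R+Rk2. SHMT2 and PSAT1 have the highest levels in both groups and ALDH1L2 the lowest, from 0.434 FPKM in an I/R+DMSO library to 2.26 FPKM in an I/R+Rk2 library.

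Of 44 other genes of folate, methionine, purine and serine metabolism 39 were tested, and 1 was higher and 5 were lower in I/R+Rk2, where 11.0% and 7.24% of all tested genes were. The median log2 fold change of the 39 was -0.04, and none of the 6 changed by more than 1.5-fold. The number that passed fell to 3 without I/R+DMSO replicate 3 and without each of the 4 I/R+Rk2 libraries in turn.

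TYMS, thymidylate synthase, fell from 103 ± 3.10 to 84.9 ± 4.39 CPM (SD, n = 4 each), which is -0.28 on the log2 scale (edgeR, adjusted p = 0.00740). Its exons overlap those of ENOSF1 and TYMSOS on the opposite strand.

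In the methionine cycle 2 of 8 tested genes fell and 6 did not pass. Of all tested genes 7.24% were lower, and these short lists were not tested as sets. MAT2A, which makes S-adenosylmethionine outside the adult hepatocyte, fell with no overlap (log2 fold change -0.38, standard error 0.0351, adjusted p = 0.000618, edgeR). It held 483, 504, 487 and 492 CPM in I/R+DMSO and 376, 394, 368 and 372 CPM in I/R+Rk2. Its exons overlap those of GGCX on the opposite strand. For AHCY, which splits S-adenosylhomocysteine, the log2 fold change was -0.13 (edgeR, adjusted p = 0.0345), and its exons overlap AL035458.2 on the same strand. With limma on FPKM the difference of AHCY was -0.011 (adjusted p = 0.943 to 0.951), and its mean was 178 FPKM in I/R+DMSO and 177 with Rk2. Of 4 tested genes of folate uptake and storage 1 fell, the reduced folate carrier SLC19A1 (log2 fold change -0.24, adjusted p = 0.0370, edgeR). The exons of SLC19A1 overlap those of COL18A1 on the opposite strand. Of the 10 other mitochondrial one-carbon genes 1 fell, the mitochondrial serine carrier SFXN1 (log2 fold change -0.12, adjusted p = 0.0460, edgeR). On FPKM SFXN1 differed by more, at -0.44 to -0.43 (adjusted p = 0.00595 to 0.00741, limma). The calls of SFXN1, SLC19A1 and AHCY were lost when any of 7, 7 and 6 of the 8 libraries was left out. They were also lost with library size only (adjusted p = 0.120, 0.0599 and 0.0639, edgeR) and with a replicate block (0.0944, 0.0670 and 0.0580). SFXN1 missed the threshold without a count filter (adjusted p = 0.0678, edgeR), and SLC19A1 missed it on FPKM (adjusted p = 0.208 to 0.253, limma). None of the 6 genes of purine synthesis or of the 7 tested genes that use serine passed the adjusted threshold.

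**Figure D5:**
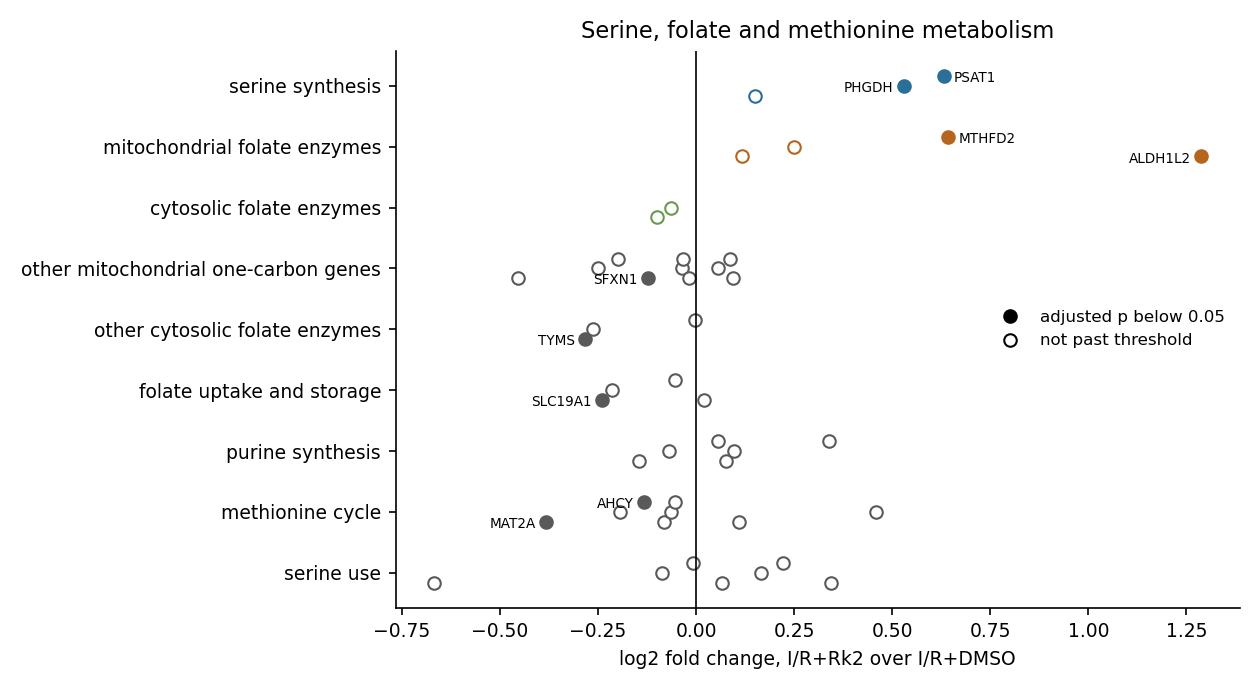
Log2 fold change in I/R+Rk2 over I/R+DMSO (horizontal axis) of the 9 enzymes (the upper rows, coloured) and of 38 of the 39 other tested genes of serine, folate, methionine and purine metabolism (grey), 1 point per gene, filled where the adjusted p was below 0.05. The 4 filled enzymes lie at 0.53 to 1.29, and the filled points of the other genes plotted lie to the left of 0, from -0.38 for MAT2A to -0.12 for SFXN1.

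Transcripts of 3 regulators of these genes were also read. ATF4, the stress-responsive activator, had 562, 487, 522 and 486 CPM in I/R+DMSO and 704, 689.6, 704 and 676 in I/R+Rk2. The groups did not overlap, and the log2 fold change was 0.43 (standard error 0.0521, adjusted p = 0.00185, edgeR). MYC, another activator of the pathway, did not pass (log2 fold change -0.08, adjusted p = 0.930, edgeR), with a 95% interval from -1.18 to 1.02. I/R+Rk2 replicate 3 held 22.0 CPM of MYC, against 108 to 136 in the other I/R+Rk2 libraries. Without that library the log2 fold change of MYC was 0.25, and without I/R+DMSO replicate 3 it was 0.09. For NFE2L2, the antioxidant regulator NRF2, the log2 fold change was 0.14 (edgeR, adjusted p = 0.670).

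The genes whose pattern over the 8 libraries was nearest to that of PSAT1, the enzyme with the smallest p, were read from 9208 tested genes with a mean of at least 10 CPM. The measure was the root mean square distance between log2 CPM scaled to mean 0 and SD 1, so it ignores the size of a change. The nearest were NFIL3, a bZIP transcription factor, at a distance of 0.0486, STC2, a secreted glycoprotein, at 0.0621, UAP1L1 at 0.0709, TRAM1, of the translocation machinery of the endoplasmic reticulum, at 0.0840, and KDELR2, a retrieval receptor for proteins of that compartment, at 0.0848. Their log2 fold changes ran from 0.34 for KDELR2, whose exons overlap DAGLB on the same strand, to 1.51 for STC2. With log2(FPKM + 1) in place of CPM, NFIL3, STC2 and TRAM1 were again among the 5 nearest. Of the other enzymes MTHFD2 lay at 0.121, which was rank 19, and PHGDH at 0.267, rank 208. ALDH1L2, whose mean was under 10 CPM, lay at 0.240, and the distances of SHMT1 and MTHFD1 were 1.63 and 1.74. All points share the 8 libraries and their 2 groups, so a small distance largely reflects a clear separation of the groups.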

How the data were processed

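The authors prepared libraries from 250 ng of RNA with an MGIEasy kit and sequenced them on a BGISEQ-500. The submitters' processing notes name FastQC 0.11.5, HISAT2 2.2.1, StringTie 1.3.3 and hg38. The annotation, the read counter and its strand setting are not given in the sources used here. The authors deposited raw counts of 15767 genes, without normalization, and FPKM values, scaled to gene length and library size, of 19799 genes. Library totals set the precision, and the genes below the filter could not be tested at this depth.

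The 8 libraries were grouped from their labels. Rows of 22 symbols with a date in place of a name (0.111% of the counts) were left out. Genes that reached 10 counts in 4 or more libraries were tested with edgeR 4.0.16 (robust quasi-likelihood, TMM, condition only, Benjamini-Hochberg adjustment) in R 4.3.3. Isozyme ratios used exact permutation tests over libraries. Gene length was derived from counts and FPKM, and it was corrected for with a loess fit per library (span 0.5). Alternatives were DESeq2 1.42.0, limma 3.58.1 on log2(FPKM + 1) and log2(FPKM + 0.1) and with voom weights, other normalizations and filters, no robust estimation, other fold thresholds, a replicate block, the length correction and leaving out each library. The edgeR step was tested on simulated data with known changes.

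The 9 genes, the related lists and the tests were chosen with earlier results of these data known. Named genes were the 9 enzymes, up to 3 genes per related list past the adjusted threshold, ATF4, MYC, NFE2L2, the 5 nearest to the enzyme with the smallest p, and the marker and overlap genes beside them. The CCAAT motif, and the further genes of the closing section, were chosen after their letters or values had been seen. A planned comparison of protein sequences was not made. Of the 39 related genes tested, 1 is counted but not reported by name or plotted here.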

Additional observations from a re-analysis of the deposited data

How the results depend on the processing

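PHGDH, PSAT1, MTHFD2 and ALDH1L2 were higher and past the threshold under all 13 alternatives and without each of the 8 libraries, with log2 fold changes of 0.50 to 0.58, 0.62 to 0.64, 0.62 to 0.66 and 1.205 to 1.377 in the latter. Over the 13 alternatives ALDH1L2 moved most of the 4, from 0.80 with log2(FPKM + 1) to 1.41 with log2(FPKM + 0.1). The number of the 9 enzymes past the threshold was 4 in edgeR, 5 with DESeq2 and with limma on FPKM, 6 with library size only and 6 after the length correction (5 higher, 1 lower), and 4 or 5 without a library. All 3 enzymes past 1.5-fold stayed so without any one library, and 1 was left at 2-fold. The cause of these differences was not tested. The 6 related genes past the threshold became 9 with DESeq2, 8 with upper-quartile normalization and 7 with voom weights. They became 3 with unfiltered FPKM in limma, and 3 to 7 without a library. The 2352 calls over all 12910 tested genes became 3008 with DESeq2, 2325 with library size only and 2272 after the length correction. They were 1123 and 1106 of 11852 genes with limma on filtered FPKM (pseudocount of 1 or 0.1), and 970 of 15729 without a filter. The calls were 1293 to 2287 without a library. Among the latter the count fell most without I/R+Rk2 replicate 2, 3 or 4, to 1467, 1510 and 1293. TYMS missed the threshold with unfiltered FPKM in limma (adjusted p = 0.0503), and its log2 fold change was -0.19 after the length correction. Leaving out a library gave MYC -0.28 to 0.25 and NFE2L2 -0.011 to 0.38, the latter below 0 without I/R+DMSO replicate 1. The isozyme ratio differences were 0.27 to 0.35 for SHMT2 over SHMT1, 0.71 to 0.76 for MTHFD2 over MTHFD1 and 0.19 to 0.24 for MTHFD1L over MTHFD1 without a library, and the last was 0.19 on FPKM (exact permutation p = 0.114).

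The labels do not say whether same-numbered libraries were paired. Their deviations from the group means correlated at -0.0095 to 0.0845, and only the libraries numbered 4 correlated best with each other. With 4 libraries per group these correlations cannot decide whether there was a pairing. With a replicate block the same 4 enzymes passed, 3 related genes and 1815 of all genes passed, and the ratio differences were 0.31, 0.74 and 0.22, each with an exact sign-flip p of 0.125, the smallest that 4 pairs allow. Depth limits ALDH1L2 most, with 76 counts in its lowest library.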

Other observations

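Genes around the 9 enzymes that missed the adjusted threshold are given here by value, chosen after their values had been seen. The subunits of serine palmitoyltransferase, which uses serine for sphingolipids, had log2 fold changes of 0.17 for SPTLC1 (95% interval 0.002 to 0.33), 0.34 for SPTLC2 (0.11 to 0.58) and 0.22 for SPTLC3 (-0.27 to 0.71). SPTLC1 and SPTLC2 did not overlap between the groups, which was also so for 28.3% of all tested genes. The adjusted p of SPTLC1, SPTLC2 and SPTLC3 was 0.140, 0.0524 and 0.507 in edgeR. The 4 genes of the glycine cleavage system, which feeds carbon units from glycine into mitochondrial folate, differed in sign. GLDC had a log2 fold change of -0.25 (95% interval -0.44 to -0.06, adjusted p = 0.0715, edgeR) and GCSH of -0.45 (-0.90 to -0.01, adjusted p = 0.137, edgeR), while AMT was at -0.04 (-0.66 to 0.59) and DLD at 0.09 (-0.12 to 0.31). All 4 overlapped between the groups. The mean FPKM of GLDC was almost equal, 29.4 in I/R+DMSO and 29.5 in I/R+Rk2. The adjusted p of MTR, methionine synthase, was 0.108 in edgeR, at a log2 fold change of 0.46 (95% interval 0.05 to 0.87). The values of this section are without the gene length correction, and the part of gene length in them was not tested.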
